A study of Rattus norvegicus with 68 samples.

Results

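The nasal lining of male F344/CrlBR rats was compared after 4 weeks of breathing formaldehyde at 15 ppm (4 animals, numbers 362, 365, 368 and 369) and at 10 ppm (4 animals, numbers 331, 333, 336 and 338). These 8 arrays, 1 per animal, are part of 68 arrays in 17 dose and time groups, and the pair was chosen by the dose and time that the labels give. All rats were 8 weeks old at the start and inhaled the gas with the whole body for 6 hours a day on 5 days a week. Neither group is unexposed: the comparison is the last step between 2 high doses, and the lowest dose used here at 4 weeks is 0.7 ppm. One label field gives 5 days of treatment for these 8 arrays, whereas their titles, descriptions and time tags all give 4 weeks, which was followed. Epithelial cells were freed with proteases from a nasal section called level II, described as mainly transitional with some respiratory epithelium. Biotin-labelled RNA was hybridised to Affymetrix Rat230_2 arrays. Each value is a deposited log2 signal, in which a difference of 1 is a doubling. The array gave 14217 genes with 1 symbol each, and a gene was called when its adjusted p was under 0.05 in limma, a linear model fitted to all 68 arrays.

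Formaldehyde is a small reactive gas that dissolves in the wet lining of the nose and joins proteins and DNA together. Cells oxidise it with the help of glutathione. Injured nasal epithelium is known to replace itself by division of basal cells, and with repeated injury the thin secretory and ciliated lining can be remodelled into a layered squamous one, in which keratins, small proline-rich proteins and transglutaminases build a cornified envelope.

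At 15 ppm, 894 of the 14217 genes (6.29%) differed from 10 ppm. Of these, 726 were higher (5.11%) and 168 were lower (1.18%). The changes were mostly small: 203 reached 1.5-fold, 37 were at least 1 log2 unit higher and 4 at least 1 log2 unit lower, and the median standard error of a change was 0.104. Genes of mitosis, DNA replication, ribosome assembly and the cornified envelope made up the lists with the most called members. The count leaned on the spread borrowed from other groups. With the 8 arrays fitted alone, 5 genes were called, namely Cdkn2a, Ppbp, Sema3d, Gip and Trim59, the last pair named after their values were seen. It also leaned on single animals, with 161 genes called when animal 331 (10 ppm) was left out, 345 without animal 368 (15 ppm), 372 when animal 369 (15 ppm) was dropped and 467 without animal 336 (10 ppm). With 1 of these animals left out, all 894 kept the sign of their change. They were chosen for their change in these same arrays, so a kept sign is weak support. The 8 arrays alone give the same changes as the main fit, so no sign could turn there. In all, 142 genes (0.999%) were called without each of the 8 arrays in turn, 130 higher (0.914%) and 12 lower (0.0844%).

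The arrays of a group correlated at 0.980 to 0.995 and arrays of different groups at 0.971 to 0.993. RNA integrity numbers were 7.8 to 8.4 at 10 ppm and 8.4 to 9.1 at 15 ppm, so the groups differ in this measure, and 696 genes were called with it as a covariate. The epithelial marker Epcam lay between 12.59 and 12.84 in all 8 arrays. RNA of other tissues was also present. The olfactory marker Omp read 11.01 to 13.28 although the olfactory lining is labelled as discarded, and the haemoglobin gene Hbb read 14.39 to 14.83. Fibroblast, cartilage and bone genes had a mean level of 7.78 to 9.24 at 10 ppm and 7.59 to 8.61 at 15 ppm. It was highest in 10 ppm animals 331 and 336 and 15 ppm animal 362. None of these 60 genes was called, their median change was -0.43, and 53 of them had a negative change, against 6622 of all 14217. Without those 3 arrays, a check added after seeing the data, 18 genes were called. All 894 kept their sign there, which says little because they were chosen for their change with those arrays included. In samples of mixed cells like these, fewer cells of a type and less RNA per cell cannot be told apart.

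**Figure D1:**
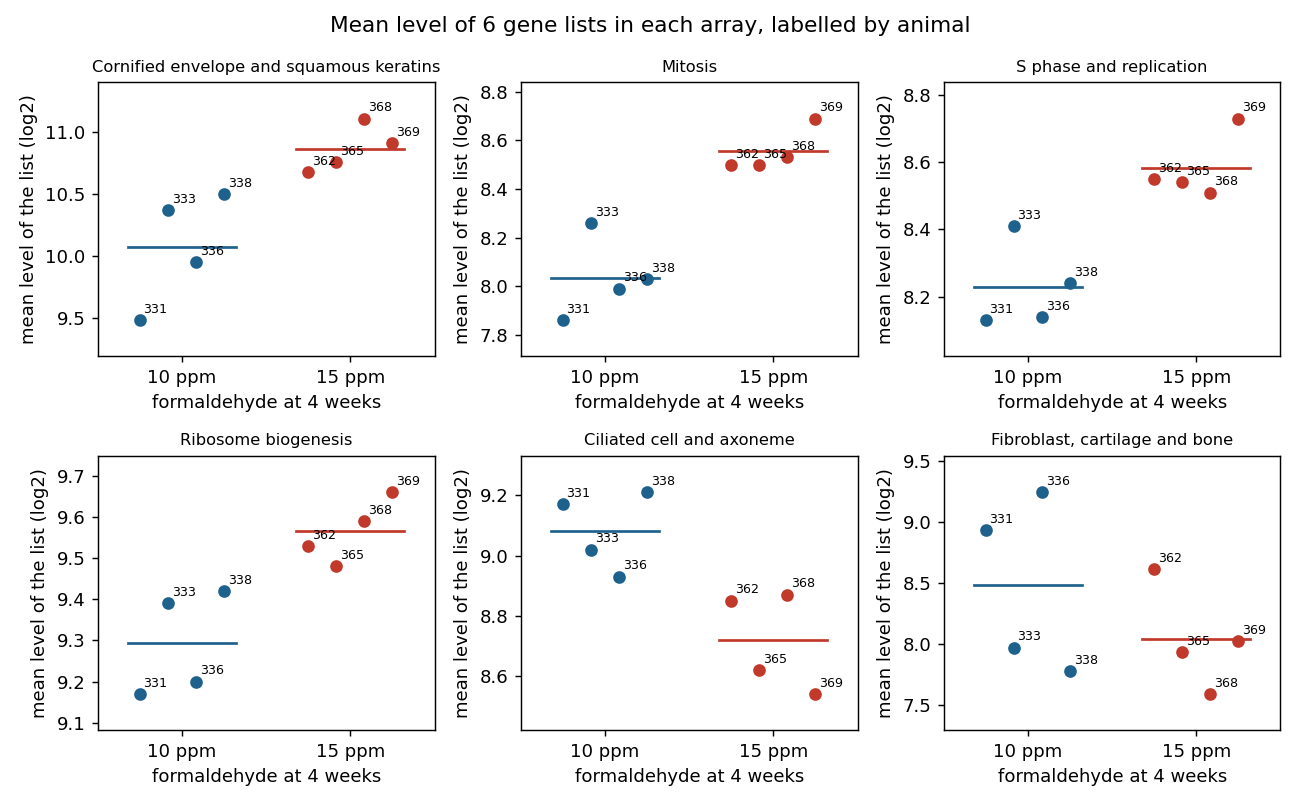
Mean log2 level of 6 gene lists in each of the 8 arrays at 4 weeks, with dose on the horizontal axis, 1 labelled point per animal and a line at the group mean. The cornified, mitosis, S phase and ribosome lists were higher in all 15 ppm arrays, from 10.68 against at most 10.50 for the cornified list, while the ranges of the fibroblast, cartilage and bone list overlap.

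The largest change in the whole comparison was in Cdkn2a, which encodes the cell cycle inhibitor p16INK4a and, from another reading frame, the p53 stabiliser ARF. It read 4.72, 5.87, 5.75 and 5.58 at 10 ppm and 9.08, 9.01, 9.16 and 9.03 at 15 ppm, in the order of the animal numbers. The 15 ppm animals were nearly level with each other and far above every 10 ppm animal. The change was 3.59 (SE 0.24, adjusted p 2e-16), and it stayed between 3.34 and 3.72 with any 1 array left out. No fold is given because the 10 ppm values are under 6, in the low range of the scale, where signal and background are hard to separate. The 4-week group means were 4.84 at 0.7 ppm, 4.65 at 2 ppm, 5.15 at 6 ppm, 5.48 at 10 ppm and 9.07 at 15 ppm, so the lower doses lie close together and the last step stands apart.

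The same gene behaved differently with time. After 5 days at 15 ppm it still read 4.75 to 5.20, and the change from 10 ppm was 0.32 (adjusted p 0.426). After 13 weeks it read 6.81 to 8.48 at 10 ppm and 9.11 to 10.53 at 15 ppm, a change of 2.21. The 4-week change exceeded the 5-day change by 3.27 (SE 0.34, adjusted p 5.6e-10), whereas its difference from the 13-week change, 1.38 (SE 0.34), was not called (adjusted p 0.418).

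Among the measured genes, Cdkn2a lies on chromosome 5 in RefSeq's rat gene table between Mtap, an enzyme of methionine salvage, and Cdkn2b, the related inhibitor p15INK4b. Cdkn2b read 6.70, 7.10, 6.68 and 6.96 at 10 ppm against 7.04, 7.12, 6.94 and 7.09 at 15 ppm. These ranges overlap and the change of 0.19 (SE 0.11, adjusted p 0.308) was not called, whereas its 13-week change of 0.43 was (adjusted p 0.00421). Mtap, named after its values were seen, read 8.96, 9.22, 8.82 and 9.09 against 9.81, 9.58, 9.91 and 9.65, and all 15 ppm animals were above all 10 ppm animals. It rose by 0.72 (SE 0.17, adjusted p 0.00575), although its dimmer probe sets, at means of 6.39 and 4.92 at 15 ppm, differed by 0.21 and -0.06 only.

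**Figure D2:**
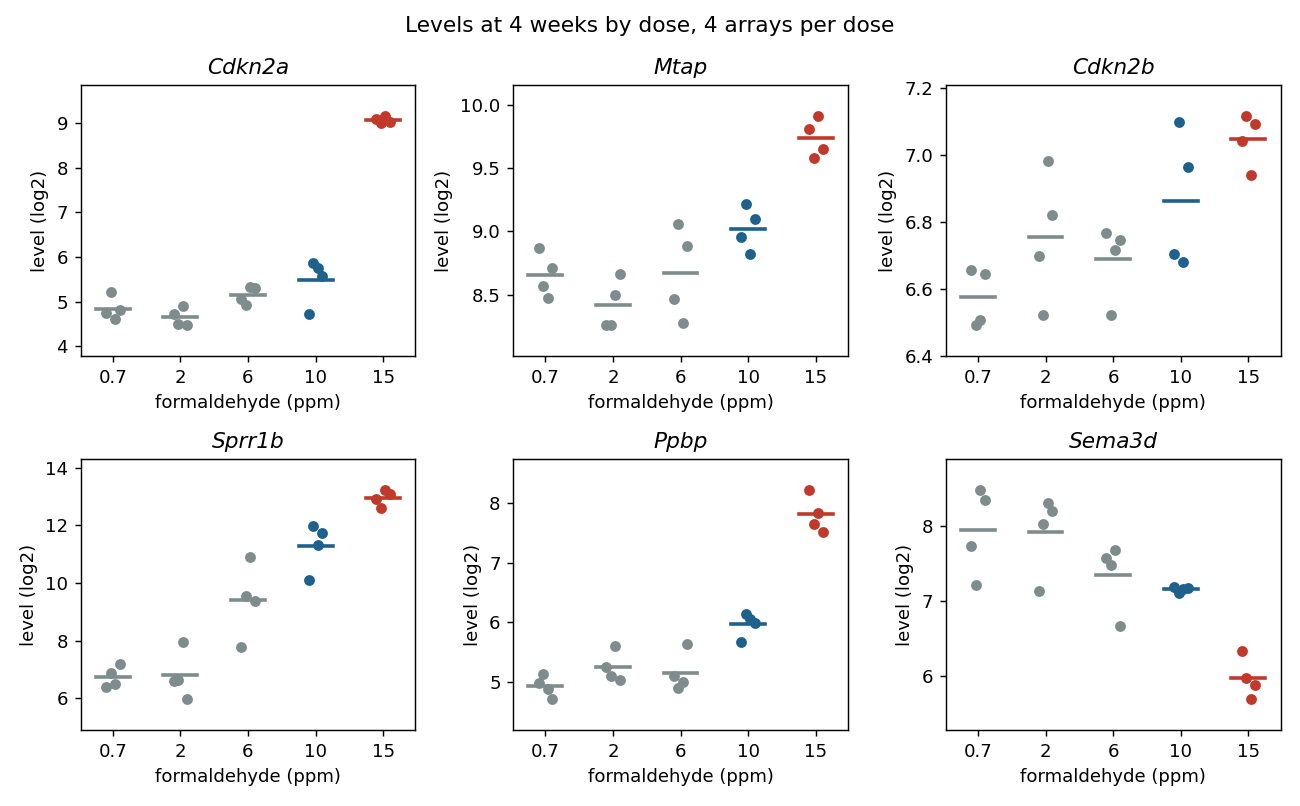
Log2 level at 4 weeks of 6 genes against dose in ppm, with 1 point per animal and a line at the mean of each group of 4. Cdkn2a stays at group means of 4.65 to 5.48 up to 10 ppm and stands at 9.07 at 15 ppm, while Sprr1b climbs from 6.73 at 0.7 ppm through 9.40 at 6 ppm to 12.97 at 15 ppm.

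Genes of cell division rose together. Of 61 mitosis genes, 47 were called higher, against 5.11% of all genes, and none lower. The median change of the 61 was 0.57 against 0.01 over all genes tested. In 45 of the 61 the groups did not overlap, compared with 8.89% of all genes for that direction. Mki67, the proliferation marker, read 8.49, 9.20, 8.88 and 8.92 at 10 ppm and 9.65, 9.76, 9.95 and 9.75 at 15 ppm, with animal 331 lowest. It rose 1.87-fold (log2 change 0.90, SE 0.23, adjusted p 0.0123). The centromere protein gene Cenpn read 8.26, 8.42, 8.32 and 8.36 against 8.86, 8.84, 9.10 and 8.98, a 1.52-fold rise with little spread in either group (SE 0.09, adjusted p 6.2e-05). Aurka, the kinase that matures the spindle poles, rose 1.67-fold from 6.94, 7.19, 7.27 and 7.20 to 7.71, 8.02, 7.88 and 7.94 (adjusted p 0.00013).

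Among motor and spindle genes, Kif15 rose 1.44-fold (adjusted p 0.00015) and Hmmr, a spindle assembly protein, 1.73-fold (adjusted p 0.00047). Cenpe, a motor at the kinetochore, rose by 0.76 from 5.66 to 6.09 at 10 ppm up to 6.33 to 6.96 at 15 ppm. Calls for Cenpn, Aurka, Kif15, Hmmr and Cenpe held without each of the 8 arrays, but that of Mki67 did not hold without animal 331 (adjusted p 0.101) or 368. In the whole list 22 members were called without animal 331 and 31 without animal 369. None was called with the 8 arrays alone, and 4 were called without the 3 arrays of highest fibroblast, cartilage and bone level.

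Promoters of mitosis genes are known to carry a CCAAT box, bound by NF-Y, together with the element TTTGAA, bound by repressor complexes in resting cells. RefSeq's promoter table (GRCr8) was searched on both strands over the 250 bases before each start for CCAAT, which reads ATTGG on the other strand, and for the element above. Both motifs stood in 23 of 53 mitosis promoters with an entry (43.4%), against 473 of 11700 promoters of measured genes (4.04%). The pair was in 18 of 43 promoters of the members called higher (41.9%), and in 7.46% of promoters of all genes called higher. Below are the 200 bases before the start of Cdk1, the kinase that drives entry into mitosis, its partner cyclin gene Ccnb2 (chosen, like Cdk1, after values were seen) and Hmmr, shown because each holds both motifs, which are in capitals. Cdk1 lies at chr20:19265093-19265292 on the plus strand, Ccnb2 at chr8:79981659-79981858 and Hmmr at chr10:25665216-25665415, both on the minus strand.
Cdk1: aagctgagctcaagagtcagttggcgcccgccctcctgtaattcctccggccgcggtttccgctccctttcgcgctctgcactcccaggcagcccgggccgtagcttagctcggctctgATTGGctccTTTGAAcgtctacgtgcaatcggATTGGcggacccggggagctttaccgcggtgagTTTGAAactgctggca
Ccnb2: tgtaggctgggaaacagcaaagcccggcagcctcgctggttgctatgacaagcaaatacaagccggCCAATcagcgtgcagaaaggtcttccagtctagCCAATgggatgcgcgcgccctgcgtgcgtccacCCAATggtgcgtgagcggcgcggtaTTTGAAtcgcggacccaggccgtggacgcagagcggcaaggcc
Hmmr: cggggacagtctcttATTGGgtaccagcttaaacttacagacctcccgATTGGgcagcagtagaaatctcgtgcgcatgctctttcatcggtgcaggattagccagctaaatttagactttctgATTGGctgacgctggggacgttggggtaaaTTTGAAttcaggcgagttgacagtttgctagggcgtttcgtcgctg
Cdk1 read 9.97, 10.48, 9.87 and 10.12 at 10 ppm and 10.52, 10.70, 10.55 and 10.93 at 15 ppm, with no overlap, a 1.48-fold rise (SE 0.13, adjusted p 0.00458). Ccnb2 rose 1.51-fold, from 9.36 to 9.87 up to 9.95 to 10.40 (adjusted p 0.0152, and 0.0973 without animal 331). A motif match describes the letters in this window and was not tested as a site of regulation.

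DNA replication genes followed. Of 52 genes of S phase and replication, 25 were called higher, against 5.11% of all genes, and none lower. The median change of the 52 was 0.34. Gins4, a part of the replicative helicase, read 8.40, 8.80, 8.66 and 8.76 against 9.33, 9.32, 9.25 and 9.62, a 1.66-fold rise (SE 0.12, adjusted p 0.00017). Tk1, the thymidine kinase of dividing cells, rose 1.56-fold (adjusted p 0.00103), Ccne1, the cyclin of S phase entry, 1.54-fold (adjusted p 0.00461) and Rrm1, of deoxynucleotide synthesis, 1.32-fold (adjusted p 0.00284). Pcna, the sliding clamp, had a smaller change of 1.18-fold from 12.25 to 12.48 up to 12.56 to 12.74 (adjusted p 0.0321), which was not called without animal 331 (adjusted p 0.197). The calls of Gins4, Tk1, Ccne1 and Rrm1 held without each array. The list had 6 called members without animal 331, 9 without 369 and 12 without 336. No member was called with the 8 arrays alone or without the 3 arrays of highest fibroblast, cartilage and bone level.

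Of 70 ribosome biogenesis genes, 21 were called higher, against 5.11% of all genes, and none lower. A positive change was found in 69 of the 70 (median 0.28), against 7595 of all 14217 genes. Mybbp1a, a nucleolar protein, rose 1.39-fold (adjusted p 0.00369), Fbl, which methylates ribosomal RNA, 1.33-fold (adjusted p 0.0142), Wdr46 1.38-fold (adjusted p 0.014) and Nhp2 1.37-fold (adjusted p 0.0147). The call of Mybbp1a held without each array, and the others were lost without animal 331 (adjusted p 0.085 to 0.119). Nolc1 rose 1.26-fold on the probe set used (adjusted p 0.0145), and its 3 other probe sets differed by 0.47, -0.12 and -0.03. This list was the most dependent on single arrays. Its count was 1 without animal 331, 2 without 336, 3 without 368, 3 without 369, and 33 without 338. It was 0 with the 8 arrays alone and without the 3 arrays of highest fibroblast, cartilage and bone level, and 32 after centring each array on its median.

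Squamous genes formed the group with the largest typical change. Of 58 genes of the cornified envelope and squamous keratins, 23 were called higher, against 5.11% of all genes, and none lower. The median change of the 58 was 0.74. The groups did not overlap, with 15 ppm higher, for 34 of them, against 8.89% of all genes. Sprr1b, a small proline-rich envelope protein, read 10.12, 11.98, 11.32 and 11.75 at 10 ppm and 12.92, 12.61, 13.23 and 13.10 at 15 ppm. Animal 331 was far below the other 10 ppm animals, and all 15 ppm animals were above them. The rise was 3.19-fold (log2 change 1.67, SE 0.40, adjusted p 0.00727). At 4 weeks Sprr1b had already reached a mean of 9.40 at 6 ppm from 6.73 at 0.7 ppm, so the last step added to a gene that was high at 10 ppm. Its promoter is shown because AP-1 factors are known to drive this gene. The 250 bases before the start (RefSeq, GRCr8, chr2:180706356-180706605, minus strand) hold 1 match to TGANTCA, in capitals. This is a loose form of the AP-1 motif, in which N is any base and here is A. The match was not tested as a site that AP-1 binds.
Sprr1b: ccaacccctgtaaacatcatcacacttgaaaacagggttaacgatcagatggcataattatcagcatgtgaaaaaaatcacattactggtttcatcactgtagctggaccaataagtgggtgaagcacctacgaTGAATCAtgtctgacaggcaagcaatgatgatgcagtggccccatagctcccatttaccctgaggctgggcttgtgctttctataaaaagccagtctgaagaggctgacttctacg
Such a match stood in 10 of 45 promoters of the squamous list (22.2%) and in 4.83% of those of measured genes, but in 2 of 17 of its members called higher (11.8%).

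Klk8, a skin protease, rose 3.09-fold from 7.45, 8.66, 8.29 and 9.14 to 9.69, 9.63, 10.65 and 10.10 (SE 0.41, adjusted p 0.0101). Krt12, a keratin best known from the cornea, rose 2.87-fold (adjusted p 0.0197), Ly6g6c 2.79-fold (adjusted p 0.00443), Krt78 2.25-fold (adjusted p 0.00575) and Tgm1, the transglutaminase that crosslinks the envelope, 2.32-fold (adjusted p 0.0258). Aloxe3, a lipoxygenase of the skin barrier, rose 2.13-fold (adjusted p 0.00485). Ivl, which encodes the envelope precursor involucrin, was low throughout, at 4.39, 5.53, 4.99 and 5.19 against 6.36, 5.83, 6.79 and 5.93, and rose by 1.20 (SE 0.28, adjusted p 0.00621). Basal keratins changed less: Krt5 rose 1.44-fold (adjusted p 0.0298) and Krt14 1.34-fold (adjusted p 0.00942), from levels already between 12.13 and 13.94 at 10 ppm. Krt18, a keratin of simple epithelium, fell by 0.28 (SE 0.09, adjusted p 0.0418), from 12.29 to 12.53 at 10 ppm down to 12.00 to 12.25. The epithelial keratin Krt8 differed the other way, by 0.20 (SE 0.10), and was not called (limma adjusted p 0.255). It read 12.91 to 13.20 at 10 ppm and 13.17 to 13.44 at 15 ppm. Krt13 differed by 1.07 (SE 0.43) and was not called (adjusted p 0.128), although its groups did not overlap.

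Other strongly changed genes outside the list are known from squamous or retinoid biology. Calml5, a calmodulin-like protein of keratinocytes, rose 3.01-fold (adjusted p 0.0349), Sult2b1, the cholesterol sulfotransferase of skin, 3.09-fold (adjusted p 0.00294), and Krt79 2.26-fold (adjusted p 0.00458). Crabp2, which carries retinoic acid, rose 2.5-fold from 10.00, 11.28, 11.01 and 11.25 to 12.02, 12.05, 12.54 and 12.20 (adjusted p 0.0125). Rdh12, a retinol dehydrogenase, rose by 1.45 from low levels (adjusted p 0.00363), as did Rbp7, a retinol-binding protein, by 1.27 (adjusted p 0.0055). Cysrt1 rose 2.43-fold (adjusted p 0.00047), Vsig10l 2.54-fold (adjusted p 0.00079) and Gdpd3 2.86-fold (adjusted p 0.00533). The dimmer Vsig10l probe set, at means of 6.56 at 10 ppm and 6.61 at 15 ppm, differed by 0.05 only.

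Of the genes just named, Pkp3 (a desmosome protein, 1.67-fold higher, adjusted p 0.00078), Cysrt1 and Vsig10l were called without each of the 8 arrays in turn. All the other calls among them were lost without animal 331, with adjusted p of 0.0532 for Sult2b1 up to 0.252 for Calml5, and 0.103 for Sprr1b. In the list as a whole, 1 member was called without animal 331, 4 without 368, 11 without 336 and 12 without 369. The count was 6 with the 4-week arrays alone, 15 with the RNA integrity number as a covariate, and 0 with the 8 arrays alone. It was also 0 without the 3 arrays of highest fibroblast, cartilage and bone level, which include animal 331.

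**Figure D3:**
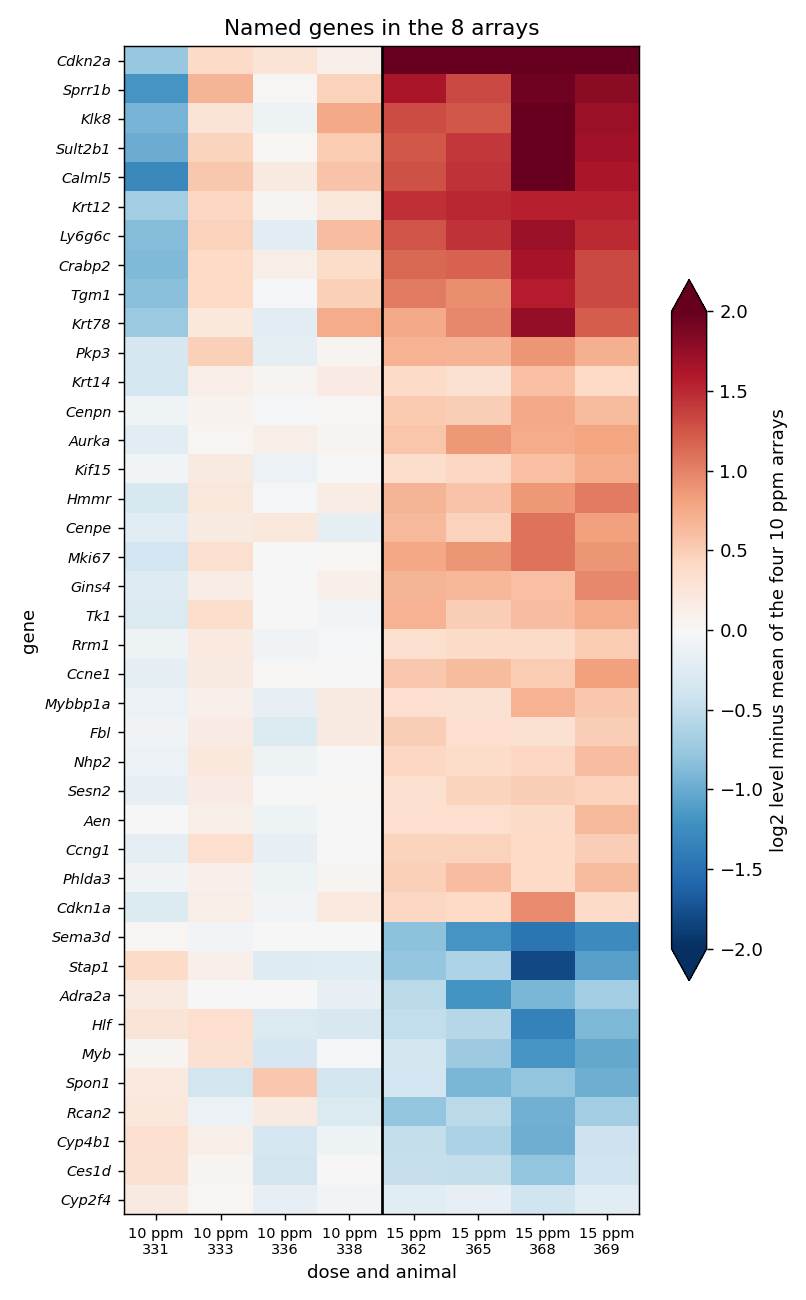
Heat map of 40 named genes in the 8 arrays at 4 weeks; colour is the log2 level minus the mean of the 10 ppm arrays, limited to 2 on either side. Squamous and retinoid genes (rows from Sprr1b to Krt78) are lowest in 10 ppm animal 331 and mostly highest in 15 ppm animal 368, and mitosis genes lie above the 10 ppm mean in all 15 ppm animals.

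Genes that the tumour suppressor p53 is known to switch on were called higher in 8 of 25 cases and lower in none, against 5.11% of all genes called higher (median change 0.16). Cdkn1a, the inhibitor p21, read 10.59 to 11.06 at 10 ppm against 11.29, 11.26, 11.80 and 11.25 at 15 ppm, without overlap. It rose 1.45-fold (SE 0.14, adjusted p 0.0106), and its dimmer probe set differed by 0.14. Without animal 331 the change was 0.44 and without animal 368 it was 0.40, and the call was lost in both cases (adjusted p 0.103 and 0.101). Sesn2, a stress sensor, rose 1.35-fold (adjusted p 0.00142), Aen, a nuclease of apoptosis, 1.34-fold (adjusted p 0.00203), Ccng1 1.37-fold (adjusted p 0.00369) and Phlda3, an inhibitor of Akt, 1.44-fold (adjusted p 0.0106). The calls of Sesn2, Aen and Ccng1 held without any 1 array, and Phlda3 lost its call without animal 331 (adjusted p 0.065).

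Of 55 genes of crosslink and other DNA repair, 6 were called higher and 1 lower, against 5.11% and 1.18% of all genes. Ube2t and Fancd2, of the Fanconi anaemia pathway for crosslink repair, rose 1.48-fold (adjusted p 0.00072) and 1.47-fold (adjusted p 0.0044). H2ax, the histone marked at DNA breaks, rose 1.49-fold (adjusted p 0.00089). Ercc5, an endonuclease of nucleotide excision repair, fell from 7.98, 8.15, 8.08 and 7.99 to 7.62, 7.71, 7.21 and 7.56 (change -0.53, SE 0.11, adjusted p 0.00351). All of these held without each array in turn. The enzymes that oxidise formaldehyde itself were not called: Adh5, the glutathione-dependent formaldehyde dehydrogenase, differed by -0.15 (SE 0.11, adjusted p 0.465) and Aldh2 by -0.20 (SE 0.12, adjusted p 0.318). Among 26 genes of aldehyde oxidation and one-carbon steps, Aldh5a1 rose 1.4-fold (adjusted p 0.021) and Shmt2 1.32-fold. The dimmer Aldh5a1 probe sets differed by 0.02 and 0.16. Aldh6a1 fell by 0.42 (adjusted p 0.0227) and Aldh1a1 by 0.21 (adjusted p 0.0358). None of these 4 calls held without animal 331.

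Of the stress lists, Nrf2 targets had a share of higher calls below the 5.11% of all genes, and the heat shock, unfolded protein and glycolysis lists had shares above it. Of 52 Nrf2 target and glutathione genes, 2 were called higher: Gss, glutathione synthetase, 1.27-fold (adjusted p 0.0098, and 0.0685 without animal 331) and Cbr1 1.37-fold (adjusted p 0.0316, and 0.16 without that animal). Hmox1, heme oxygenase, read 10.84 to 11.39 at 10 ppm and 11.05 to 11.67 at 15 ppm and was not called (change 0.16, SE 0.22, adjusted p 0.739). Of 28 heat shock and metallothionein genes 4 were called higher, among them Hspb1, a small chaperone, 1.77-fold (adjusted p 0.0135) and the mitochondrial Hspd1 1.23-fold (adjusted p 0.00495), both lost without animal 331. Of 44 genes of the unfolded protein and integrated stress responses 4 were called higher, and they are not chaperones. Psat1 rose 1.43-fold (adjusted p 0.00013) and Phgdh 1.35-fold (adjusted p 0.0483), both of serine synthesis, beside Shmt2 and Sesn2. Psat1 held without each array, and Phgdh lost its call without any 1 of 7 arrays. Of 38 glycolysis and hypoxia genes, 7 were called higher and none lower. Pgam1, a glycolytic mutase, rose 1.29-fold (adjusted p 0.00013), Slc16a1, a lactate transporter, 1.88-fold (adjusted p 0.00411, and 0.0532 without animal 331), and hexokinase Hk2 by 0.40 from low levels (adjusted p 0.0152, and 0.147 without 331).

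Of 43 EGF receptor ligand and immediate early genes, 5 were called higher and 1 lower, against 5.11% and 1.18% of all genes. Hbegf, a ligand, read 6.68 to 7.06 at 10 ppm against 7.45, 7.50, 7.94 and 7.79, a 1.65-fold rise (adjusted p 0.0108). Tgfa, another ligand, rose 1.23-fold (adjusted p 0.031) and Fosl1, an AP-1 subunit, 1.63-fold (adjusted p 0.031). Spry1, a feedback inhibitor of receptor signalling, fell by 0.37 (SE 0.11, adjusted p 0.0306). The ligand Areg read 9.26, 9.90, 9.82 and 9.73 against 10.48, 10.03, 10.59 and 10.63 and was not called (change 0.76, SE 0.32, adjusted p 0.149). Its 4-week mean had gone from 5.20 at 0.7 ppm to 9.68 at 10 ppm. Without animal 331 none of the calls of Hbegf, Tgfa, Fosl1 and Spry1 held (adjusted p 0.0902 to 0.189).

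Of 55 genes of proteolysis and wound repair, 5 were called higher and 1 lower, against 5.11% and 1.18% of all genes. Hmga1, a chromatin protein of growing cells, rose 1.7-fold (adjusted p 0.00012) and held without each array. The hemidesmosome genes Col17a1 and Itgb4 rose 1.62-fold (adjusted p 0.0218) and 1.52-fold (adjusted p 0.0336), and Fst, the activin antagonist follistatin, 1.89-fold (adjusted p 0.0176). These did not hold without animal 331 (adjusted p 0.158 to 0.186). Timp3, a metalloproteinase inhibitor of matrix, fell from 10.40, 9.12 and 10.93 in animals 331, 333 and 336, with 338 slightly below 333, to 9.47, 8.89, 8.09 and 8.82, a change of -1.05 (SE 0.33, adjusted p 0.0413). Its ranges overlap and animals 331 and 336, also highest in the fibroblast, cartilage and bone list, were the high ones. Without the 3 arrays of highest level in that list its change was -0.46 (adjusted p 0.719).

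Inflammatory genes were counted in 5 lists. Of 72 cytokine and chemokine genes 7 were called higher, of 39 macrophage and dendritic cell genes 3, of 27 neutrophil genes 2, of 67 interferon response genes 1, and of 49 T and cytotoxic lymphocyte genes none. Against 5.11% of all genes called higher, the share was above in the first 3 lists and below in the interferon and T cell lists. The smallest adjusted p in the last list was 0.0909. An unadjusted p under 0.05 was found for 4 of its genes, against 3024 of all 14217. Ppbp, a platelet and myeloid chemokine, read 5.68, 6.15, 6.05 and 5.99 at 10 ppm and 8.21, 7.65, 7.83 and 7.52 at 15 ppm (change 1.84, SE 0.20, adjusted p 1.8e-08). The groups did not overlap, and Ppbp, Cdkn2a and Gip were the genes called in all 19 other fits by gene. Gip, an incretin hormone gene, was higher by less (5.78 to 5.97 against 6.92 to 7.16, change 1.17, adjusted p 1.5e-06). Ccl7, a monocyte chemokine, read 5.79, 6.26, 7.19 and 5.46 against 7.90, 6.98, 8.22 and 7.15, with animal 336 inside the 15 ppm range, and rose 2.62-fold (SE 0.24, adjusted p 0.00033). Il24 rose by 1.10 from low levels (adjusted p 4.5e-05), Cxcl3, a neutrophil chemokine, 1.44-fold (adjusted p 0.00511), Ccl4 1.78-fold (adjusted p 0.00533) and the decoy receptor Il1r2 2.42-fold (adjusted p 0.026). Without animal 368 the calls of Cxcl3, Ccl4 and Il1r2 were lost (adjusted p 0.0662 for Cxcl3 and 0.0521 for Ccl4), and without animal 331 those of Cxcl3 (adjusted p 0.0613) and Il1r2 (adjusted p 0.172) were too.

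Of the myeloid markers, Itgax (CD11c) rose 1.87-fold (adjusted p 0.0105), the Fc receptor Fcgr1a 1.59-fold (adjusted p 0.0107), Gpnmb 1.51-fold (adjusted p 0.0418) and Lilrb4 2.08-fold (adjusted p 0.0199), and the interferon-induced Herc6 rose by 0.97 (adjusted p 0.0107). None of these 5 held without animal 331 or without animal 368. Defining markers of these cells were not called: S100a8 of neutrophils read 10.03 to 11.42 at 10 ppm and 10.55 to 11.40 at 15 ppm, Cd68 of macrophages 8.08 to 8.56 and 8.24 to 8.81, and Cd3e of T cells 6.62 to 6.93 and 6.67 to 7.15. The macrophage markers went both ways, with changes of 0.13 for Cd68, -0.14 for Csf1r and -0.18 for C1qa, none of them called. Ccl2 differed by 0.97 (SE 0.47, adjusted p 0.222) and Cxcl10 by 0.66 (SE 0.54, adjusted p 0.522).

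At 5 days 37 of the 72 cytokine and chemokine genes had been called higher, 27 of 39 macrophage genes, 20 of 27 neutrophil genes, 26 of 49 T cell genes and 46 of 67 interferon genes, against 7.18% of all genes. The difference between the times was tested directly. In 988 genes (6.95%) the 15 against 10 ppm change at 4 weeks differed from that at 5 days, and 401 of them (2.82%) had the lower change at 4 weeks. Among these were 21 of 72 cytokine and chemokine genes, 19 of 39 macrophage genes, 17 of 27 neutrophil genes, 17 of 49 T cell genes and 10 of 67 interferon genes. The metalloproteinase Mmp3 changed by -0.11 at 4 weeks and 5.38 at 5 days, a difference of -5.49 (SE 0.55, adjusted p 1.8e-10). It was no longer low at 4 weeks, with means of 8.12 at 10 ppm and 8.01 at 15 ppm against 4.20 at 6 ppm. For Ccl2 the changes were 0.97 and 5.15, for Fcnb, a ficolin of granulocytes, 0.12 and 4.25, and for the matrix proteoglycan Vcan 0.32 and 3.61, each with a called difference. The 5 Vcan probe sets differed by -0.04 to 0.77 at 4 weeks.

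In 587 genes (4.13%) the 4-week change was the higher one, 59.4% of the 988. Scaling moved this split: the 4-week change was higher in 1028 and lower in 355 called genes after centring each array on its median (74.3% higher), and higher in 273 and lower in 535 with cyclic loess (33.8%). With a 1.5-fold minimum, 203 were higher and 342 lower, and without animal 336, 212 and 258. Squamous genes held 14 of these, mitosis genes 6, Nrf2 target and glutathione genes 11 and cholesterol synthesis genes 6. Akr1c3, an aldo-keto reductase of steroid and prostaglandin metabolism, read 5.95, 7.66, 6.78 and 7.19 at 10 ppm and 8.59, 8.37, 9.19 and 9.02 at 15 ppm, a 3.71-fold rise (SE 0.56, adjusted p 0.0298, and 0.176 without animal 331). Its 5-day change was -0.65, and the difference between the changes was 2.55 (adjusted p 0.036). For Ly6g6c the changes were 1.48 and -0.45 (adjusted p of the difference 0.00581), for Krt78 1.17 and -0.20 (adjusted p 0.0205) and for Krt13 1.07 and -0.82 (adjusted p 0.0477). Tmprss11d, an airway protease, changed by 1.16 at 4 weeks, which was not called (adjusted p 0.0853), and by -0.66 at 5 days.

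Across the 14217 genes the changes at 4 and at 13 weeks correlated at 0.69 and those at 4 weeks and 5 days at 0.22. These are descriptions: the compared groups share no arrays, but genes are not independent and all arrays were normalised together. Of the 894 genes called at 4 weeks, 639 were called at 13 weeks (71.5% of the 4-week list, 35.6% of the 1793 called at 13 weeks), all in the same direction. At 5 days 220 were called (24.6% and 10.2% of the 2158 called there), of which 198 in the same direction. Over all genes, 12.6% were called at 13 weeks (8.55% higher, 4.07% lower) and 15.2% at 5 days (8% lower). Squamous genes had 24 of 58 called higher at 13 weeks (median 0.76) and 4 at 5 days (median -0.01), and mitosis genes had 46 of 61 (median 0.57) and 13 (median 0.23). No gene was called in the limma test of the difference between the 4-week and 13-week changes. In that test 502 of 14217 genes had an unadjusted p under 0.05, a share below 0.05, against 3024 for the 4-week change itself. Between 0 and 3 genes were called in it under the other settings.

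**Figure D4:**
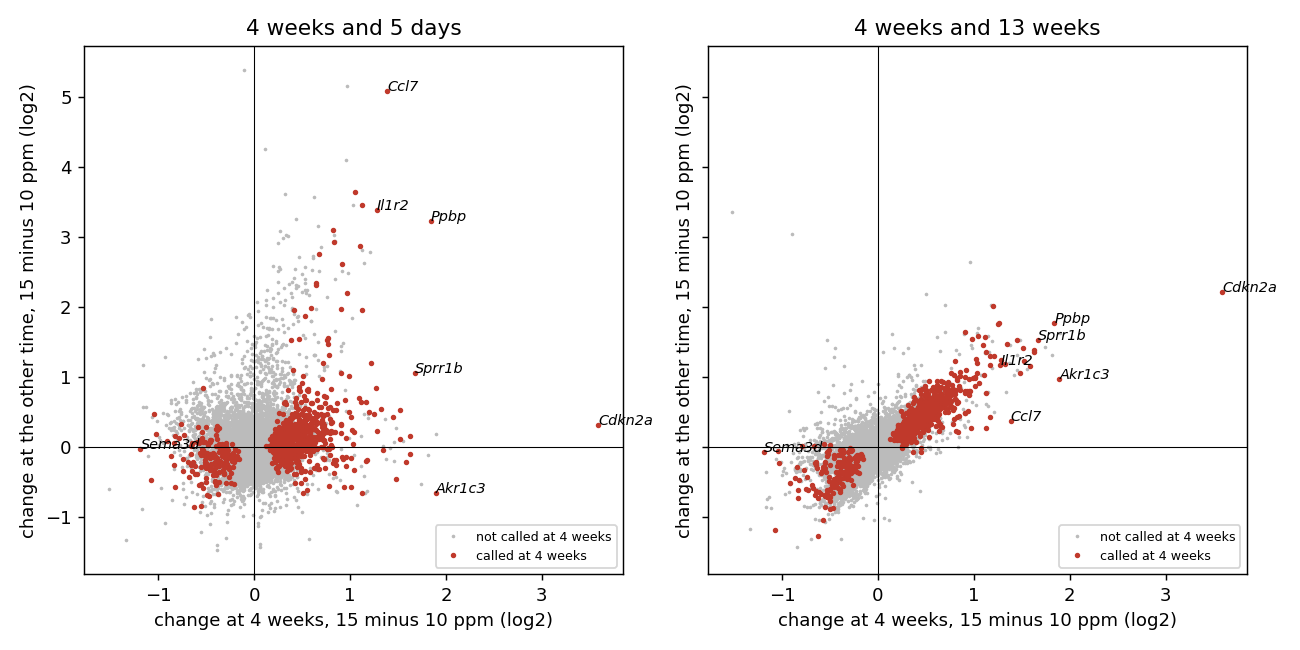
Change from 10 to 15 ppm (log2) of each of 14217 genes at 4 weeks on the horizontal axis against 5 days (left) and 13 weeks (right), with genes called at 4 weeks in red. Points lie along a diagonal at 13 weeks (r = 0.69) and follow it less closely at 5 days (r = 0.22).

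The genes that fell were fewer and changed less. Sema3d, a secreted semaphorin that guides cells and axons, read 7.19, 7.11, 7.17 and 7.17 at 10 ppm and 6.34, 5.97, 5.70 and 5.88 at 15 ppm. The 10 ppm animals were nearly identical and all the 15 ppm animals were below them (change -1.19, SE 0.28, adjusted p 0.00694). It held without each array. Its change was -0.03 at 5 days, where 15 ppm animals read 5.77 to 5.94 and 10 ppm animals 5.21 to 6.65, and -0.07 at 13 weeks. Neither difference between the times was called (adjusted p 0.0654 and 1). Stap1, an adaptor protein, fell from 9.39, 9.11, 8.75 and 8.76 to 8.23, 8.38, 7.20 and 7.91 (change -1.07, adjusted p 0.00879, and 0.077 without animal 331).

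Several transcription and signalling genes followed. Hlf, a clock-output factor, fell by 0.83 (adjusted p 0.0115), and its 3 other probe sets differed by -0.33, -0.34 and -0.01. Myb, a factor of progenitor and multiciliated cells, fell by 0.82 (adjusted p 0.0275), from 9.31 to 9.95 down to 8.46 to 9.27. Adra2a, an adrenergic receptor, fell by 0.83 (adjusted p 0.0218), and its dimmer probe set, at a mean of 4.98 at 15 ppm, differed by -0.03. Rcan2, a calcineurin regulator, fell by 0.75 (adjusted p 0.018) and Prkaa2, an AMP-activated kinase subunit, by 0.64 (adjusted p 0.0258). Crim1 fell by 0.64 (adjusted p 0.0111) and the matrix protein Spon1 by 0.77 (adjusted p 0.0218). For Stap1, Hlf, Myb, Adra2a, Rcan2, Prkaa2, Crim1 and Spon1 the call was lost without animal 331 (adjusted p 0.0613 to 0.113) and without animal 368.

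Genes of xenobiotic metabolism, for which nasal epithelium is known, had 4 of 62 called lower and 1 higher, against 1.18% of all genes called lower. Cyp4b1 read 11.82, 11.61, 11.17 and 11.40 against 11.02, 10.87, 10.52 and 11.08, lower by 1.54-fold (adjusted p 0.0201). The carboxylesterases Ces1d and Ces1e were lower by 1.44-fold (adjusted p 0.00458) and 1.42-fold (adjusted p 0.0357). Cyp2f4, a P450 of airway secretory cells, fell from 14.29 to 14.64 down to 14.06 to 14.30, a 1.19-fold drop at the top of the scale (adjusted p 0.0114). Tiparp, induced by the Ah receptor, rose 1.2-fold (adjusted p 0.0187) on its brighter probe set, while the dimmer one differed by -0.33 and the mean of both by -0.037 (adjusted p 0.9). None of these 5 calls held without animal 331 (adjusted p 0.0683 to 0.251).

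Secretory and transport genes were called in both directions, against 5.11% of all genes called higher and 1.18% called lower. Of 52 secretory, mucous and gland genes 1 was called higher and 3 lower, and of 41 tight junction and ion transport genes 1 and 3. In both lists the share called lower was above that of all genes and the share called higher below it. Negative changes were found in 37 of the 52 (median -0.12) and in 27 of the 41 (median -0.11), against 6622 of all 14217 genes. The chloride channel Ano1 fell by 0.46 (adjusted p 0.0347), the sodium pump subunit Atp1b1 by 0.37 (adjusted p 0.00931) and the claudin Cldn8 by 0.50 (adjusted p 0.0364). Clca2, a channel regulator of basal and squamous cells, rose 1.46-fold (adjusted p 0.0272), and Rab25, an epithelial trafficking protein, 1.52-fold (adjusted p 0.00661). None of these held without animal 331. Muc5ac, the goblet cell mucin, ranged from 9.96 to 12.00 and from 10.11 to 12.22 and was not called (change 0.19, SE 0.58, adjusted p 0.899). Scgb1a1 of club cells was near the low end in all arrays (6.22 to 6.95) and was not called (adjusted p 0.794). Epcam differed by -0.03 (SE 0.05, adjusted p 0.817).

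No ciliated cell gene was called, yet 49 of 51 had a negative change (median -0.39), 18 lay wholly below the 10 ppm range, against 3.71% of all genes, and 27 had an unadjusted p under 0.05. The smallest adjusted p was 0.0654. Foxj1, the master factor of motile cilia, read 10.63, 10.41, 10.10 and 10.52 against 10.36, 9.91, 10.39 and 9.84, ranges that overlap (change -0.29, SE 0.17, adjusted p 0.327). At 13 weeks 27 of these 51 genes were called lower (median -0.57), against 4.07% of all genes. At 5 days none was (median -0.13), against 8% of all genes. Neither the difference between 4 weeks and 5 days nor that between 4 and 13 weeks was called for any of the 51.

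**Figure D5:**
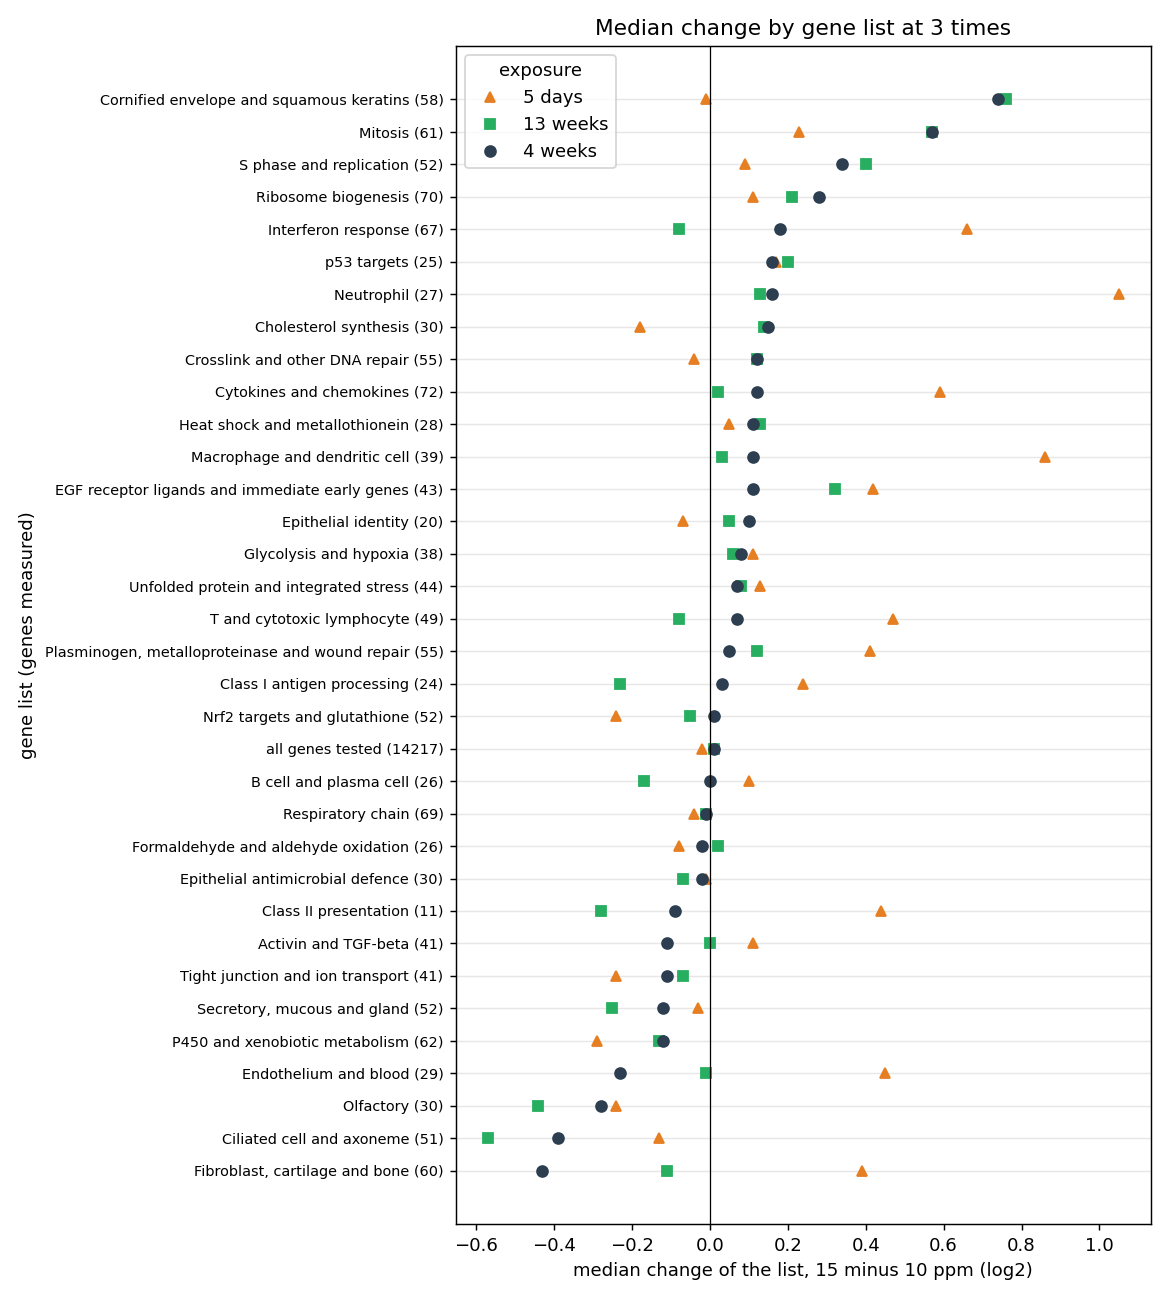
Median change from 10 to 15 ppm (log2) of each of 33 gene lists and of all genes tested, at 5 days, 4 weeks and 13 weeks, with the number of genes measured in brackets. Squamous and mitosis lists stand at 0.74 and 0.57 at 4 weeks, close to their medians of 0.76 and 0.57 at 13 weeks, whereas neutrophil and macrophage lists stand at 1.05 and 0.86 at 5 days and 0.16 and 0.11 at 4 weeks.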

How the data were processed

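Values came from the deposited series table of Affymetrix Rat230_2 arrays, which holds log2 signals; the submitters' processing notes name GCOS 1.0 and RMA, with no RMA version or probe file given in the sources used here. Of 31099 probe sets, 20826 had 1 symbol in GEO's platform annotation, 436 several, 9780 none, and 57 were controls. Each of 14217 genes was read from its brightest probe set on average across the 68 arrays, and 4525 genes had more than 1. Arrays were grouped by dose and time in the titles. A model of 17 group means was fitted to 68 arrays with limma 3.58.1 (R 4.3.3), with Benjamini-Hochberg adjustment over all genes, and was tested on simulated data. The log2 values range from 3.17 to 15.4, and no fold is given where a group mean is under 6. With 4 arrays a group, their number limits precision.

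The members and gene lists were chosen with earlier results of these data known. Of 1829 list entries in 33 lists, 1437 were measured. Named were, among called genes with groups that do not overlap, the 20 largest changes each way (in part), up to 5 called members of each list, the 5 largest of each sign in each test between times, and a fixed set of single genes, 2 of which had no probe set of 1 symbol. Alternatives covered the arrays in the fit, scaling, filter, probe set, covariates, weights and each array left out. Unexposed arrays at 4 weeks were not analysed here.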

Additional observations from a re-analysis of the deposited data

Results flagged for a closer look

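Some animals stood apart from the other 3 of their group in a named gene. Chance gives such a gap in about 1 of 20 groups, and 242 groups were looked at. At 15 ppm, animal 368 was the highest for Pkp3 (10.44, next 10.26), Nolc1 (9.50, next 9.18), Cdkn1a (11.80, next 11.29), Hmga1 (10.42, next 10.10) and Phgdh (8.50, next 8.28). Animal 369 was the highest for Aen (9.24, next 8.97) and animal 362 for Fcnb (10.21, next 8.72). At 10 ppm, animal 331 was the lowest for Aloxe3 (5.53, next 6.61) and Hbegf (6.68).

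For 35 named genes the change from 10 to 15 ppm at 4 weeks differed from that at 5 days in limma's test of the difference. The difference, 4 weeks minus 5 days, was positive for Cdkn2a (3.27), Akr1c3 (2.55), Ly6g6c (1.93), Krt13 (1.89), Tmprss11d (1.81), Vsig10l (1.38), Krt78 (1.37), Krt79 (1.35), Clca2 (1.16), Cysrt1 (1.05), Pkp3 (0.68), Rab25 (0.62), Aldh5a1 (0.61), Aldh2 (0.56), Kif15 (0.49) and Aldh1a1 (0.31). For Aldh1a1 and Aldh2 it stood for a smaller fall at 4 weeks: Aldh2 changed by -0.20 at 4 weeks and by -0.76 at 5 days.

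The difference was negative for Mmp3 (-5.49), Ccl2 (-4.18), Fcnb (-4.13), Ccl7 (-3.69), Vcan (-3.30), Lilrb4 (-2.58), Cxcl10 (-2.49), Il1r2 (-2.10), Ccl4 (-2.09), Fcgr1a (-2.08), Il24 (-1.76), Fst (-1.70), Timp3 (-1.52), Ppbp (-1.39), Gpnmb (-1.39), Cxcl3 (-1.35), Herc6 (-1.23), Spon1 (-1.09) and Itgax (-1.07). All but Mmp3, Timp3 and Spon1, which had a negative change at 4 weeks, had a positive change at both times.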

How the results depend on the processing

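No paired analysis was possible because the animal numbers of the groups all differ. The 894 calls became 5 with the 8 arrays alone, 381 with the 4-week arrays alone, 203 at 1.5-fold, 161 to 1013 with 1 array left out, and 18 without the 3 arrays of highest fibroblast, cartilage and bone level. Other settings gave 696 to 1143. The share of calls that were higher was 81.2% in the main fit, 90.3% after centring each array on its median and 71.3% with array weights. All 894 kept their sign in the fits by gene, except that 887 did with the mean of probe sets, where Tiparp turned to -0.037. With a mean of at least 6 in some group, 880 of them were tested and all kept it. The fits of the 8 arrays or the 4-week arrays alone give the changes of the main fit, so their signs could not turn. The genes were chosen for their change in these arrays, so a kept sign is weak support. The 988 calls between 4 weeks and 5 days became 545 at 1.5-fold, 470 to 1225 with 1 array left out and 305 without those 3 arrays. The 0 calls between 4 and 13 weeks became 1 with cyclic loess, 1 with a mean of at least 6 in some group, 1 with array weights and 0 to 3 with 1 array left out.

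The squamous list's 23 higher calls became 0 with the 8 arrays, 6 with the 4-week arrays, 15 with the RNA integrity number, 1 to 28 with 1 array left out and 0 without those 3 arrays. The 47 in mitosis became 0 with the 8 arrays, 28 at 1.5-fold, 22 to 47 with 1 array left out and 4 without those 3. The 25 in S phase became, likewise, 0, 7, 6 to 32 and 0, and 12 with the 4-week arrays. The 21 in ribosome biogenesis became, likewise, 0, 0, 1 to 33 and 0, with 12 from the 4-week arrays and 32 after centring. The cause of these shifts was not tested. Of the 894 genes, 142 were called without each of the 8 arrays in turn (130 higher, 12 lower), 21 of them in mitosis. Values under 6 and 4 animals a group limit what can be seen.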

Other observations

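Among lists not described so far, of 30 cholesterol synthesis genes 1 was called higher, of 30 antimicrobial defence genes 1, and of 41 activin and TGF-beta genes 1, which was Fst. In the list of 29 endothelium and blood genes the 1 called was Ppbp. The respiratory chain had 1 of 69 genes lower and class II antigen presentation 1 of 11. Of all genes, 5.11% were called higher and 1.18% lower. No gene was called in limma's test among 24 class I antigen processing genes, 26 B cell and plasma cell genes or 30 olfactory genes. In these lists 3, 4 and 1 had an unadjusted p under 0.05, against 3024 of all 14217 genes. Of 20 epithelial identity genes 3 were called higher (Krt5, Krt14 and Rab25) and 1 lower (Krt18).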
